A study of Mus musculus with 9 samples.

Results

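Polycomb repressive complex genes were compared across mouse embryonic fibroblasts (MEFs) of 3 genotypes by RNA sequencing. The set holds 10 genes chosen by symbol: Ezh1, Ezh2, Eed and Suz12 of Polycomb repressive complex 2 (PRC2), and Ring1, Rnf2, Bmi1, Cbx2, Cbx7 and Cbx8 of Polycomb repressive complex 1 (PRC1). All 10 were found among the 47937 genes of the count table, and all 10 passed the filter on low counts that left 15540 genes to test. Cbx7 passed it only through the S1S2 libraries, where it is highest. WT cells are an Eset1-conditional MEF clone with tamoxifen-inducible Cre, called E1c in the study. S1S2 cells carry a Suv39h1/Suv39h2 knockout, which removes the main writers of H3K9me3 at heterochromatin. G9Gl cells carry a G9a/Glp knockout (genes Ehmt2 and Ehmt1), which removes the main writers of H3K9me1 and H3K9me2 outside it. All groups therefore share the conditional Eset1 allele, and the labels name no tamoxifen treatment for any of them. Per the study's methods, each mutant is 1 clone made from E1c with CRISPR/Cas9, picked because the target proteins were absent on western blots, and the edited lines then received a Cre construct and were kept under puromycin. Whether WT cells also received this construct is not stated plainly, and the methods are assumed to describe the libraries analysed here. Clone and genotype can therefore not be told apart in any comparison. The study states 3 biological replicates per line, and the labels do not say how these cultures were separated, so p-values measure the spread between these libraries only.

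PRC2 methylates lysine residues of histone H3 to give H3K27me3, a mark of silent developmental genes, and PRC1 adds ubiquitin to histone H2A and compacts chromatin. Ezh1 and Ezh2 are alternative catalytic subunits of PRC2, and Eed and Suz12 are core subunits that the enzyme needs to work. Ring1 and Rnf2 are alternative ubiquitin ligases of PRC1, Bmi1 is a partner that stimulates them, and the Cbx proteins carry a chromodomain through which canonical PRC1 binds H3K27me3. In fibroblasts the complexes are known for keeping Hox genes in their positional state and for holding down the Cdkn2a locus. H3K9 methylation, whose writers are knocked out in the mutants, belongs to a separate silencing pathway.

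Libraries held 21319778 to 32157623 counts, with the S1S2 libraries among the smallest. The targeted genes were sequenced in every library. Suv39h1 was at 108 ± 4.59 CPM (gene counts relative to library size, scaled by TMM factors, mean ± SD, n = 3) in WT and 41.9 ± 3.14 in S1S2, whereas Suv39h2 was higher in S1S2 (55.2 ± 2.34) than in WT (33.9 ± 0.671). Ehmt2 was at 125 ± 9.63 CPM in WT and 54.3 ± 2.82 in G9Gl, and Ehmt1 at 104 ± 1.78 and 50.2 ± 1.62. The summed reads of a gene need not show a small mutation in it. Of 10 fibroblast marker genes, all were detected in all groups. Their summed level was 9910 to 11400 CPM in WT, 7410 to 7470 in S1S2 and 7920 to 8770 in G9Gl. At an adjusted p of at most 0.01 in edgeR, 1 of the 10 was higher and 8 were lower in S1S2, beside 20.3% and 17.6% of all genes. In G9Gl, 3 were higher and 6 lower, beside 19.0% and 16.0%. Vim was the higher one in S1S2, at 2400 ± 100 CPM against 1460 ± 97.6 in WT. Col3a1, Col1a2, Postn, Thy1, Pdgfra and Pdgfrb were called lower in S1S2 at 2-fold. Pdgfra and Pdgfrb were called lower in G9Gl too, whereas Thy1 and Postn were called higher there. S100a4 differed at 2-fold between the mutants alone. Summed markers of other cell types stayed low, at most 5.55 CPM for 4 epithelial genes, 4.63 for 3 blood genes, 1.89 for 3 endothelial genes, 1 for 3 neuronal genes and 0.587 for 3 pluripotency genes. The epithelial maximum was in S1S2 and was carried by Krt8, at 4.68 ± 0.512 CPM there and 0.139 ± 0.049 in WT. Among endothelial genes, Kdr was at 1.22 ± 0.18 CPM in S1S2 and Cdh5 at 1.01 ± 0.503 in G9Gl. Of the neuronal genes, Snap25 had 13, 22 and 10 counts in the G9Gl libraries and 0 in every other library. It did not pass the low-count filter and was not tested in edgeR. Krt8, Kdr and Cdh5 passed the low-count filter only through the genotype where each is high. The part of these shifts in the results on Polycomb genes was not tested.

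Levels of the 10 genes were first set side by side per length, as CPM per kb of merged exons. In WT cells Suz12 stood highest, at 45.7 ± 1.04 CPM per kb, followed by Bmi1 at 23.2 ± 1.25, Rnf2 at 17.0 ± 0.505, Eed at 14.7 ± 0.77 and Ezh2 at 13.0 ± 0.621. The ranges of these 5 genes over the 3 libraries did not overlap between neighbours in the order. Merged exons join those of all annotated transcripts, so this length can differ from that of the transcripts expressed. The spread between libraries does not cover this error, so the order between genes is uncertain. A lower tier held Ring1 at 3.90 ± 0.35 CPM per kb, Cbx2 at 3.87 ± 0.125, Ezh1 at 2.99 ± 0.313 and Cbx8 at 2.90 ± 0.188. Ring1 overlapped Cbx2 and Ezh1 overlapped Cbx8, so these neighbours did not differ beyond their spread. Cbx7 came last, at 0.0687 ± 0.0308 CPM per kb. Most of this order was found in both mutants. In S1S2 the first 5 ranks were the same, and Cbx7 was still last at 0.431 ± 0.0443 CPM per kb. In G9Gl, Rnf2 moved below Eed to 10.9 ± 0.84 CPM per kb and overlapped Ezh2 at 10.5 ± 0.301.

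Against WT, 1 of the 10 genes was higher in S1S2 and 4 were lower at an adjusted p of at most 0.01 in the edgeR quasi-likelihood test. Cbx7 rose, and Ezh2, Suz12, Cbx2 and Cbx8 fell, but the count of 5 became 3 without S1S2 replicate 2. Over all genes tested in this comparison, 20.3% were higher and 17.6% lower at the same limit. In G9Gl, 5 of the 10 were lower and 0 were higher. Ezh2, Suz12, Ring1, Rnf2 and Cbx7 fell, beside 19.0% of all genes higher and 16.0% lower. Without WT replicate 1 or G9Gl replicate 3 this count became 3, with Ring1 and Cbx7 no longer past the limit. At an unadjusted p under 0.05 in edgeR, 0 were higher and 8 lower in G9Gl, and DESeq2 gave 0 higher and 4 lower. Only Ezh2 and Suz12 fell past the limit in both mutants, which share the WT libraries. These shifts were small except for Cbx7, the sole gene of the set to pass a 2-fold limit as well, in each comparison. Since Cbx7 was tested only because it is high in S1S2, its calls lend no support to these counts. Of all genes, 4.66% were higher and 4.34% lower at both limits in S1S2, and 6.77% and 3.40% in G9Gl.

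The 3 libraries of a genotype did not overlap those of WT for 6 of the 10 genes in S1S2, where 56.0% of all genes showed this, and for 7 of the 10 in G9Gl, where 52.8% did. These shares are near those of all genes. The median log2 fold change of the set was -0.18 in S1S2 and -0.27 in G9Gl, where the medians of all genes tested were -0.003 and -0.007. Of the log2 fold changes, 8 of 10 were below 0 in S1S2 and 10 of 10 in G9Gl, Eed in G9Gl by only -0.01. With the median of its chromosome removed, Bmi1 turned from -0.03 to 0.05 in S1S2. Small shifts pass the test more often at high counts. Among the 9354 genes with a mean of at least 9.18 CPM, the mean of Cbx8, 25.4% were higher and 21.4% lower in S1S2, and 21% and 19% in G9Gl. Fewer cells with a transcript and fewer copies per cell cannot be told apart in these bulk libraries.

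**Figure D1:**
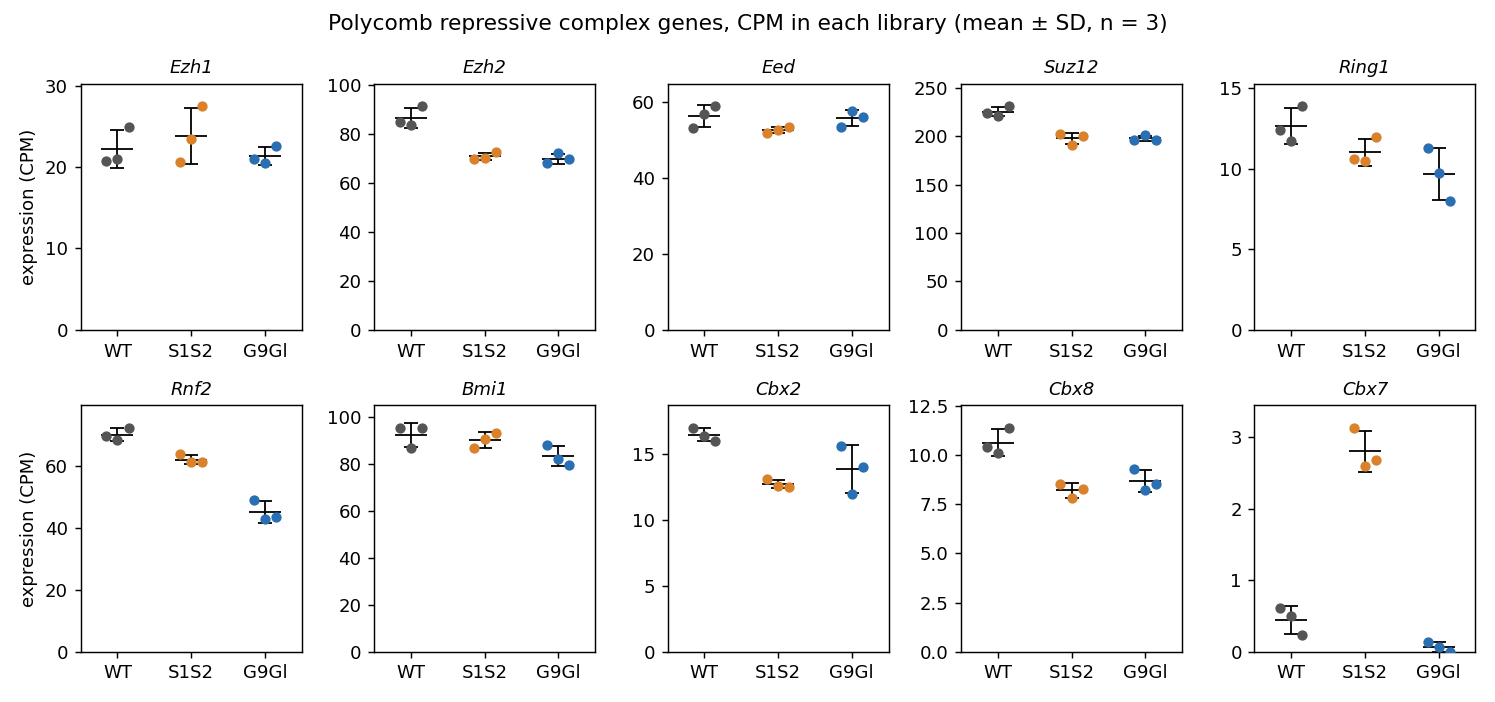
Expression of the 10 Polycomb genes in CPM (vertical axes from 0) in each library of WT, S1S2 and G9Gl MEFs; points are libraries, horizontal marks the means and bars the SD of 3 libraries. Cbx7 at 2.59 to 3.13 CPM in S1S2 and Rnf2 at 42.8 to 49.1 CPM in G9Gl lie apart from the other libraries, while Ezh1 overlaps across all genotypes and Eed overlaps WT in both mutants.

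**Figure D2:**
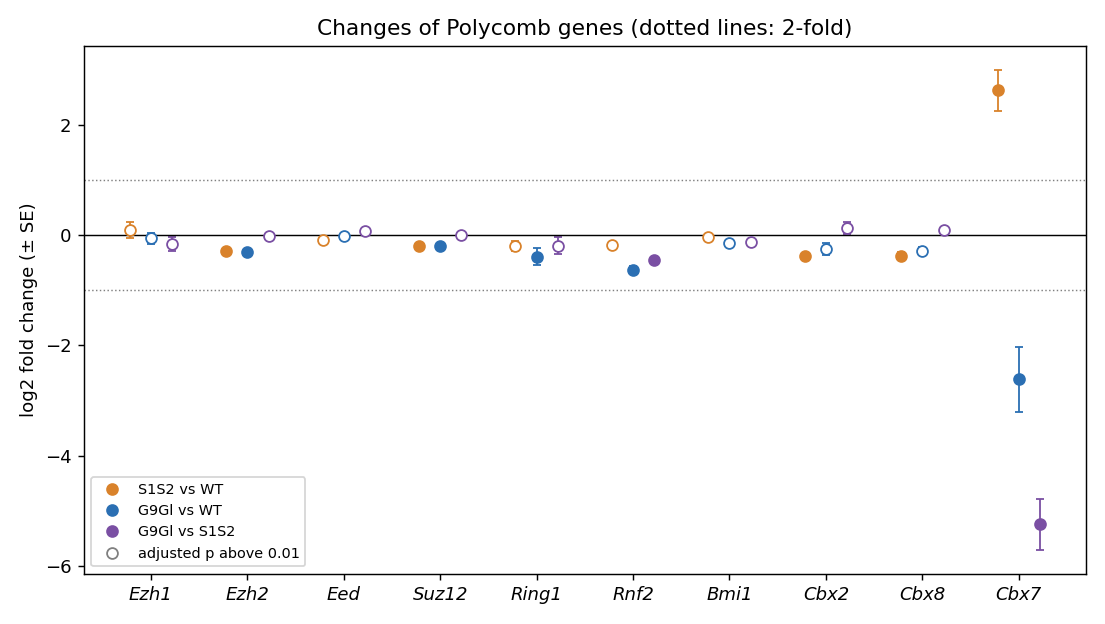
Log2 fold change of each Polycomb gene (vertical axis, ± SE) in both mutants against WT and between the mutants (G9Gl against S1S2); filled points have an adjusted p of at most 0.01 and dotted lines mark 2-fold. Cbx7 lies at 2.63, -2.62 and -5.25, and all other values lie between the dotted lines.

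Ezh2, the main PRC2 enzyme of dividing cells (chromosome 6, 47530139 to 47595341, minus strand, GRCm38), was at 84.8, 83.9 and 91.5 CPM in the WT libraries. It was at 69.9, 70.1 and 72.7 CPM in S1S2 and at 68.1, 72.1 and 69.8 CPM in G9Gl. Every mutant library was below every WT library, and the mutants overlapped each other. Ezh2 fell by 18.3% in S1S2 (log2 change -0.29, SE 0.043, adjusted p = 7.23e-05) and, by 19.3%, also in G9Gl (-0.31, SE 0.046, adjusted p = 3.43e-05). Between the mutants its log2 difference was -0.02 (SE 0.03, adjusted p = 0.776). Ezh1, the alternative enzyme known from resting and differentiated cells (chromosome 11, 101191115 to 101226463, minus strand), ranged from 20.8 to 24.9 CPM in WT, 20.6 to 27.5 in S1S2 and 20.5 to 22.6 in G9Gl. The 3 ranges of Ezh1 overlap, and neither difference from WT passed the limit (log2 change 0.10, SE 0.15 in S1S2 and -0.06, SE 0.094 in G9Gl).

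Suz12, the PRC2 scaffold subunit (chromosome 11, 79993106 to 80034123, plus strand), was at 224, 221 and 231 CPM in WT. In S1S2 its libraries were at 202, 191 and 200 CPM, and in G9Gl at 196, 201 and 196 CPM. As for Ezh2, both mutants lay below WT without overlap and overlapped each other. The fall was 12.5% in S1S2 (log2 change -0.19, SE 0.031, adjusted p = 0.000651) while that of G9Gl was 12.4% (-0.19, SE 0.023, adjusted p = 0.000695). Eed, the subunit that reads H3K27me3 (chromosome 7, 89954654 to 89980983, minus strand), ranged from 53.1 to 58.9 CPM in WT, 51.7 to 53.4 in S1S2 and 53.5 to 57.7 in G9Gl. Its log2 fold changes were -0.10 (SE 0.046, adjusted p = 0.14) and -0.01 (SE 0.054, adjusted p = 0.867). Of the exonic bases, 2.61% of Ezh2, 3.6% of Suz12 and 6.82% of Eed overlap an opposite-strand RNA gene. The partners of Ezh2 and Suz12 had at most 4 counts in a library and that of Eed 16 to 33.

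Ezh2 and its partners are known to follow cell division, so 18 division genes were measured beside them. In G9Gl, 10 of the 18 were lower and 0 higher at the adjusted limit (11 lower and 2 higher at an unadjusted p under 0.05 in edgeR, 10 lower and 1 higher in DESeq2), where 16.0% of all genes were lower and 19.0% higher, and their summed level was 5120 to 5370 CPM against 5690 to 6090 in WT. In S1S2, 3 were higher and 1 was lower (7 and 2 at an unadjusted p under 0.05 in edgeR, 4 and 1 in DESeq2), beside 20.3% and 17.6% of all genes, and the summed level of 5760 to 5890 CPM lay within the WT range. The median log2 fold change of these 18 genes was 0.01 in S1S2 and -0.16 in G9Gl. Top2a and Mki67 weighed most in the sum, at 1370 ± 102 and 992 ± 54.4 CPM in WT, and moved apart in S1S2. There Top2a was at 1140 ± 1.45 CPM (log2 change -0.26) and Mki67 at 1090 ± 13.9 (0.14). In G9Gl both had a log2 change of -0.24. Ezh2 thus fell in both mutants, while the division genes were lower as a sum in G9Gl and not in S1S2. The part of division in these falls was not tested.

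The promoter windows of Ezh2 and Suz12 are printed here because these were the PRC2 genes that fell in both mutants. Each window runs from 250 bases before to 50 bases after the RefSeq transcription start on GRCm38.p6, 5′ to 3′ on the strand of the gene, and capitals mark a match to the core site of E2F factors. Ezh2 lies at chr6:47594981-47595280, minus strand, and Suz12 at chr11:79992856-79993155, plus strand.
Ezh2: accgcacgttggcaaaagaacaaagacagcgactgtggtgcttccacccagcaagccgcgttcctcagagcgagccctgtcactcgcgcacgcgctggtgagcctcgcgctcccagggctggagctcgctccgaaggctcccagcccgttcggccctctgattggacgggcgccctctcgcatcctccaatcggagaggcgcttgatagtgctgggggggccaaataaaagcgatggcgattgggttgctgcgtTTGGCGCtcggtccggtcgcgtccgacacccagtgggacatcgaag
Suz12: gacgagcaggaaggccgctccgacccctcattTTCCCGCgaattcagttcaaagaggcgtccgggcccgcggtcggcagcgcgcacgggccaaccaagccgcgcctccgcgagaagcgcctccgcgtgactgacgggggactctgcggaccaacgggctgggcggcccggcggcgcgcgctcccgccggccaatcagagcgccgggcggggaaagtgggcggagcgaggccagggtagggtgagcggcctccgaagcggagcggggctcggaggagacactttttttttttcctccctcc
The core was searched on both strands with 4 spellings. The first is TTCCCGC, which Suz12 holds. The next is TTGGCGC, which Ezh2 holds. The others, found in no window of the 9 genes, were TTGCCGC and also the spelling TTCGCGC. Of 32851 RefSeq windows of this length, 9.57% held it. Of the 10 Polycomb genes, 9 had a window, not Cbx2, and 2 of these 9 held a match, Ezh2 and Suz12 with 1 each. The windows were rich in CpG. Ezh2 held 31 CpG and Suz12 41, the lowest was Eed with 17, and the median of all windows was 7. Each of the 4 spellings holds a CG, and the share among windows equally rich in CpG was not computed. The 9.57% is therefore not a like background for these 9 genes. A match to these letters is a description and says nothing on binding in these cells.

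Among the ubiquitin ligases of PRC1, Rnf2, also called Ring1B (chromosome 1, 151458004 to 151500955, minus strand), showed the clearest shift. It was at 69.7, 68.2 and 72.3 CPM in WT, at 63.7, 61.3 and 61.1 CPM in S1S2 and at 49.1, 42.8 and 43.5 CPM in G9Gl. The 3 genotypes did not overlap, with G9Gl lowest and S1S2 between. In G9Gl, Rnf2 fell by 35.6% against WT (log2 change -0.64, SE 0.067, adjusted p = 3.65e-08). Against S1S2 it fell by 27.2% (-0.46, SE 0.065, adjusted p = 2.05e-06). Its difference in S1S2 was -0.18 (SE 0.031) with an adjusted p of 0.0125, just outside the limit.

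Genes of chromosome 1 were lower in G9Gl as a whole, so Rnf2 was set beside its neighbours. The median log2 fold change of chromosome 1 was -0.26 in G9Gl and -0.13 in S1S2. Of the 102 other tested genes that start within 10 Mb of Rnf2, 74.5% were lower in G9Gl, with a median of -0.24, and 13 were lower than Rnf2. With that median removed, Rnf2 was at -0.39 in G9Gl, and with the chromosome median removed at -0.37. In S1S2 the neighbours had a median of -0.15, which left Rnf2 at -0.02. Trmt1l, a tRNA methyltransferase-like gene on the opposite strand, overlaps 158 exonic bases or 3.83% of Rnf2. It fell in G9Gl too, from 46.8 ± 3.14 to 26.4 ± 1.09 CPM (log2 change -0.82, SE 0.064, adjusted p = 2.95e-09). The part of this regional shift in the fall of Rnf2 was not tested.

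**Figure D3:**
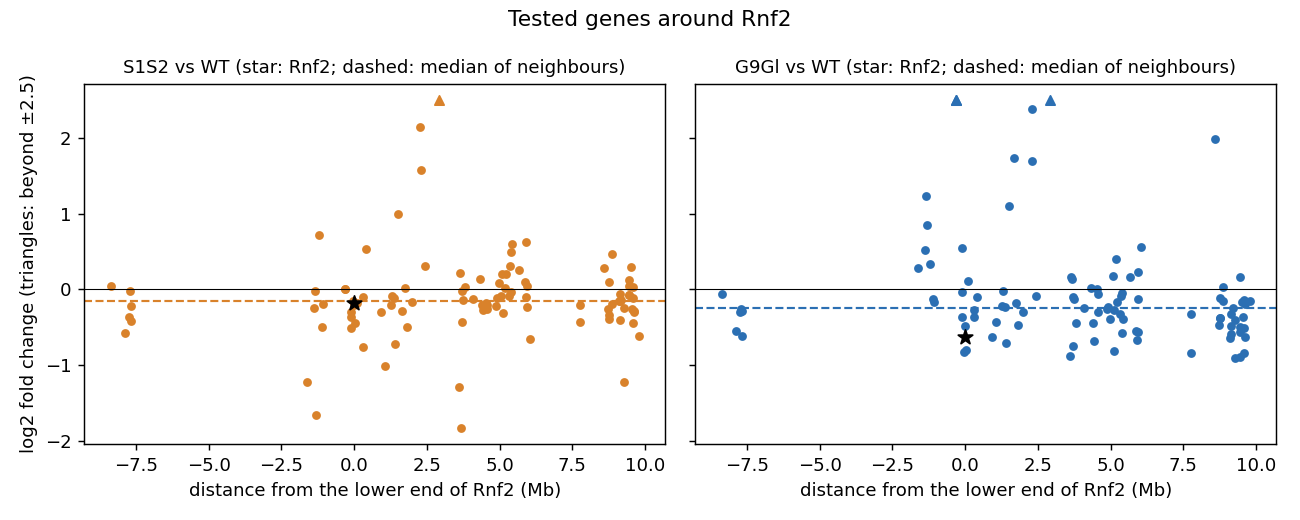
Log2 fold change against WT (vertical axis) of the tested genes near Rnf2 by distance in Mb (horizontal axis), in S1S2 (left) and G9Gl (right); the star is Rnf2, the dashed line the median of the neighbours and triangles are values beyond the axis, some of them on top of each other. In G9Gl the median of the neighbours lies at -0.24 and Rnf2 at -0.64, whereas in S1S2 Rnf2 lies next to the median of -0.15.

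The Rnf2 window is shown for comparison with the pair above, since Rnf2 fell in G9Gl and holds no E2F core and 30 CpG. It lies at chr1:151500942-151501241, minus strand, with the same bounds around the start and no capitals.
Rnf2: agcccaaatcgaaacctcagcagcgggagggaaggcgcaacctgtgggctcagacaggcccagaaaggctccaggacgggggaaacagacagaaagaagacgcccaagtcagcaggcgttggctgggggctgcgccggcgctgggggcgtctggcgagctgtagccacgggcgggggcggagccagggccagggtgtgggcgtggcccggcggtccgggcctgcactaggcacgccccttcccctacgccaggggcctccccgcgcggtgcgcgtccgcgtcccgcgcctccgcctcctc

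Ring1, the other ligase (chromosome 17, 34020792 to 34024680, minus strand), was at 12.4, 11.7 and 13.9 CPM in WT. It was at 10.6, 10.5 and 12.0 CPM in S1S2 and at 11.3, 9.73 and 8.03 CPM in G9Gl. The S1S2 libraries overlapped WT, and the G9Gl libraries lay below it but were widely spread. Ring1 fell by 23.6% in G9Gl (log2 change -0.39, SE 0.16, adjusted p = 0.00897), close to the limit. This call was lost in DESeq2 (-0.38), with DESeq2 size factors (-0.38), and without G9Gl replicate 3 (-0.27), G9Gl replicate 2 (-0.39), WT replicate 3 (-0.31) or WT replicate 1 (-0.40). It was also lost with a minimum of 10 counts in every library, in a fit of only the libraries compared, and after thinning to the smallest library. In S1S2 the log2 fold change of Ring1 was -0.20 (SE 0.097, adjusted p = 0.165).

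Bmi1, a PCGF subunit of canonical PRC1 (chromosome 2, 18677018 to 18686629, plus strand), ranged from 86.6 to 95.4 CPM in WT. It ranged from 86.8 to 93.2 in S1S2 and 79.6 to 87.9 in G9Gl. Its log2 fold changes were -0.03 (SE 0.054, adjusted p = 0.618) in S1S2 and -0.15 (SE 0.062, adjusted p = 0.0246) in G9Gl. The ranges overlapped WT in both mutants. Of the 75-base stretches of Bmi1 transcripts, 10.1% also occur in Gm5946, which had at most 3 counts in any library, so the source of those reads is uncertain.

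Cbx2 and Cbx8 code for chromodomain proteins of canonical PRC1 and are neighbours on chromosome 11. Cbx2 (119022962 to 119031270, plus strand) was at 17.0, 16.4 and 16.0 CPM in WT, 13.1, 12.6 and 12.5 in S1S2 and 15.6, 12.0 and 14.0 in G9Gl. Cbx8 (119036305 to 119040969, minus strand) was at 10.4, 10.1 and 11.4 CPM in WT, 8.55, 7.80 and 8.28 in S1S2 and 9.30, 8.22 and 8.55 in G9Gl. For both genes all mutant libraries lay below all WT libraries. Cbx2 fell by 22.6% in S1S2 (log2 change -0.37, SE 0.035, adjusted p = 0.00231) and Cbx8 by 23.1% (-0.38, SE 0.065, adjusted p = 0.00304). The Cbx2 call was lost without WT replicate 1 (-0.35) or S1S2 replicate 2 (-0.36), and the Cbx8 call without WT replicate 3 (-0.33) or S1S2 replicate 2 (-0.34). In G9Gl the log2 fold changes were -0.25 (SE 0.11, adjusted p = 0.0272) for Cbx2 and -0.29 (SE 0.074, adjusted p = 0.0144) for Cbx8, short of the limit.

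Genes around Cbx2 and Cbx8 did not fall as a whole. The 177 other tested genes within 10 Mb of Cbx2 had a median of 0.11 in S1S2 and 0.02 in G9Gl, and in S1S2 19 of them were lower than Cbx2 and, of the 177 around Cbx8, 18 were lower than Cbx8.

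Cbx7, a chromodomain protein that binds H3K27me3 and is known for repressing the Cdkn2a locus (chromosome 15, 79915807 to 79971119, minus strand), was higher in S1S2 and lower in G9Gl than in WT. It had 20, 15 and 7 counts in the WT libraries, 68, 71 and 57 in S1S2 and 4, 2 and 0 in G9Gl. As CPM these are 0.615, 0.496 and 0.226 in WT, 3.13, 2.59 and 2.68 in S1S2, and 0.140, 0.0718 and 0 in G9Gl. No genotype overlapped another, with S1S2 highest and G9Gl lowest. A floor of 3 counts per library is 0.0979 to 0.108 CPM in G9Gl, so 2 of its 3 libraries were at or under the floor.

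Because Cbx7 was tested only through its high level in S1S2, its calls are favoured by the filter, and the p-values below are descriptions. In S1S2 it was higher by 2.63 on the log2 scale (SE 0.37, edgeR adjusted p = 2.54e-06). The summed counts, scaled by library size, gave a ratio of S1S2 to WT of 6.21, with an exact 95% interval of 4.43 to 8.89 that covers counting error only. In G9Gl it fell by 2.62 on the log2 scale (SE 0.59, adjusted p = 0.00192), and the ratio of WT to G9Gl was 6.49 (2.75 to 18.7). The fall in G9Gl rests on 42 counts in WT and 6 in G9Gl. This call was lost without WT replicate 1 (-2.31) or without G9Gl replicate 3 (-2.02). In a fit of only the WT and G9Gl libraries Cbx7 did not pass the low-count filter and was not tested. Between the mutants the log2 difference was -5.25 (SE 0.46, adjusted p = 2.66e-08), with a ratio of S1S2 to G9Gl of 40.3 (18.2 to 111). These SE come from log2 CPM with a prior count of 2, on which the genotype means of Cbx7 spanned only 4.46. They are therefore not the error of the fitted log2 changes and can understate it.

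Neighbouring genes did not share this pattern. Of the 251 other tested genes within 10 Mb of Cbx7, 250 had a lower log2 fold change than Cbx7 in S1S2 and 1 had a lower one in G9Gl, and their medians were -0.05 and 0.11. Apobec3, an antiviral cytidine deaminase gene on the opposite strand (chromosome 15, 79891659 to 79915906), shares 100 exonic bases with Cbx7, which are 1.54% of the exonic bases of Cbx7. It was at 7.69, 6.98 and 7.35 CPM in WT, at 2.57, 3.43 and 3.15 in S1S2 and at 25.2, 24.3 and 22.9 in G9Gl. Apobec3 therefore moved opposite to Cbx7 in both mutants. It fell in S1S2 (log2 change -1.26, SE 0.13, adjusted p = 1.03e-07) but rose in G9Gl (1.72, SE 0.058, adjusted p = 3.4e-11). The libraries are stranded, and whether strand was used in counting was not given in the sources used here.

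**Figure D4:**
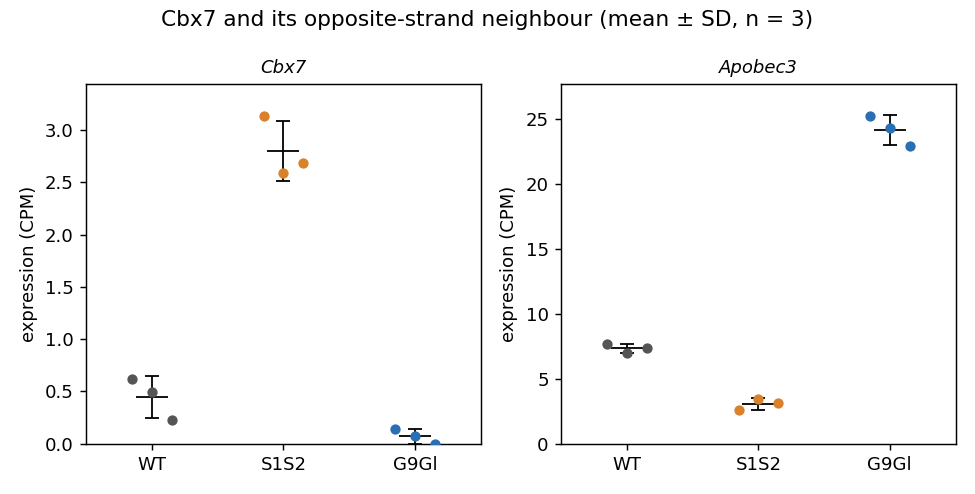
Expression in CPM (vertical axes from 0) of Cbx7 and of Apobec3, which overlaps its end on the opposite strand, in each library; points are libraries, marks and bars the mean ± SD of 3. Cbx7 is highest in S1S2 (2.59 to 3.13 CPM), where Apobec3 is lowest (2.57 to 3.43 CPM), and Apobec3 is highest in G9Gl (22.9 to 25.2 CPM).

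The Cbx7 window is printed because this gene showed the largest shift of the 10. It lies at chr15:79932597-79932896, minus strand, and holds 33 CpG and no E2F core. This RefSeq start lies inside the gene span used for counting, so the counts do not separate transcripts from this start and from those upstream.
Cbx7: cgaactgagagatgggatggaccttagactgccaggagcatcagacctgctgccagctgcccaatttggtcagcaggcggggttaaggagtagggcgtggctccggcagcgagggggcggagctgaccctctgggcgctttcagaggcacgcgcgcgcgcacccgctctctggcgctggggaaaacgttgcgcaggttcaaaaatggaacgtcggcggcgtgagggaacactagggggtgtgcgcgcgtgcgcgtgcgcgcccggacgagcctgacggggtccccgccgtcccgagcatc

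Members that take the same place in a complex were also compared as a balance, the difference of their log2 CPM within a library, over 15 comparisons. With 3 libraries against 3 the smallest exact permutation p is 0.1 (two-sided), which is 0.1875 after Benjamini-Hochberg adjustment over the 15. None can therefore pass a limit of 0.05. Per length of merged exons, with the limit given above, Ezh2 stood 4.36 ± 0.24 times as high as Ezh1 in WT. It stood 3.35 ± 0.414 times as high in S1S2 and 3.66 ± 0.238 times in G9Gl. Both mutants lay below WT without overlap (log2 difference -0.38, SE 0.11 and -0.25, SE 0.071, exact permutation p = 0.1 for each). The ratio of Rnf2 to Ring1 was 4.37 ± 0.256 in WT, 4.43 ± 0.388 in S1S2 and 3.71 ± 0.471 in G9Gl, and these ranges overlapped (exact permutation p = 0.9 and 0.2 against WT). Cbx2 to Cbx8 stayed at 1.34 ± 0.118, 1.34 ± 0.0474 and 1.38 ± 0.0985, with log2 differences of 0.01 (SE 0.08) and 0.04 (SE 0.096) from WT. Cbx7 to Cbx2 went from 0.0176 ± 0.00747 in WT to 0.144 ± 0.011 in S1S2 and 0.00328 ± 0.00301 in G9Gl, and Cbx7 to Cbx8 from 0.0242 ± 0.0116 to 0.193 ± 0.0126 and 0.0045 ± 0.00429. Neither Cbx7 ratio overlapped between genotypes. These balances cover Cbx genes of the set of 10 only. Cbx6, outside the set, was at 16.3 ± 0.958 CPM per kb in WT, 13.3 ± 0.265 in S1S2 and 16.2 ± 0.663 in G9Gl.

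The direct comparison of the mutants separated few of the 10 genes. Rnf2 and Cbx7 were lower in G9Gl than in S1S2, and 0 were higher, where 21.6% of all genes were higher and 21.1% lower. At an unadjusted p under 0.05, edgeR gave 0 higher and 3 lower, and DESeq2 gave 0 higher and 2 lower at the adjusted limit. Cbx7 was the sole gene past 2-fold, where 7.97% of all genes were higher and 5.08% lower. The libraries of the mutants did not overlap for 3 of the 10, Eed, Rnf2 and Cbx7, whereas 60.8% of all genes showed this. The median of the 10 was -0.07 and that of all genes 0. Among the 9354 genes at or above the mean level of Cbx8, 23.5% were higher and 25.4% lower. Ezh2, Suz12, Cbx2 and Cbx8 overlapped between the mutants, with log2 differences of -0.02 (SE 0.03), 0.00 (SE 0.028), 0.12 (SE 0.11) and 0.09 (SE 0.065).

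The genes most alike in pattern were sought by Pearson correlation of log2 CPM over the 9 libraries, for the members with the widest range of genotype means. This is a description, as libraries of a genotype cluster and share depth. Cbx7, with a range of 4.46, was most like Lamtor1 (r = 0.9899), Galnt12 (0.9892) and a gene with the identifier ENSMUSG00000063897.3 and no matched symbol (0.9885). Galnt12 was at 3.49 ± 0.459 CPM in WT, 9.34 ± 0.0438 in S1S2 and 1.51 ± 0.208 in G9Gl, whereas Lamtor1 went only from 65.3 ± 1.86 to 73.0 ± 0.734 and 60.5 ± 1.17. Rnf2, with a range of 0.64, was most like Ramp1 (0.9932), Emilin2 (0.9911) and Atg3 (0.9906). Atg3 was at 81.5 ± 3.01 CPM in WT, 73.1 ± 2.03 in S1S2 and 55.7 ± 3.89 in G9Gl. Ramp1 was low, at 0.993 ± 0.0899, 0.542 ± 0.0485 and 0.103 ± 0.0346 CPM.

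Other genes of the pathway were measured from lists of accessory subunits, and genes given as examples here other than Epop were picked after their values were seen. The counts of each list stand beside the shares of all genes tested, 20.3% higher and 17.6% lower in S1S2, and 19.0% higher and 16.0% lower in G9Gl. Of 9 PRC2 accessory genes, 2 were higher and 1 lower in S1S2 (median log2 fold change -0.02, with 3 and 2 at the unadjusted limit and 2 and 1 in DESeq2), and 0 were higher and 4 lower in G9Gl (-0.15, with 0 higher and 6 lower at an unadjusted p under 0.05 in edgeR, and 0 and 4 in DESeq2). Without G9Gl replicate 1 the count of 4 became 2. Epop, which links PRC2 to elongin, was the sole gene past 2-fold. It was at 7.20, 6.78 and 6.80 CPM in WT, 6.94, 7.40 and 7.81 in S1S2 and 2.32, 2.84 and 1.89 in G9Gl. The G9Gl libraries lay far below the others, which overlapped. Epop fell in G9Gl against WT (log2 change -1.57, SE 0.17, adjusted p = 4.15e-08) and also against S1S2 (-1.66, SE 0.17, adjusted p = 1.92e-08). Phf19, a PRC2 subunit that reads methylated H3K36, fell in G9Gl from 39.4 ± 1.53 to 29.0 ± 1.27 CPM (-0.44, SE 0.049, adjusted p = 5.35e-06).

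Of 24 other PRC1 genes, 23 were tested, and 1 further gene of this list is not reported here and left out of its counts. In S1S2, 10 were higher and 2 lower, with a median of 0.06, and in G9Gl 3 were higher and 5 lower, with a median of -0.01. At an unadjusted p under 0.05 in edgeR these were 10 and 5 in S1S2 and 7 and 7 in G9Gl, and DESeq2 gave 10 and 2, and 3 and 5. None passed 2-fold in either mutant in edgeR or DESeq2. Pcgf5, a PCGF subunit of variant PRC1, rose in S1S2 from 23.9 ± 1.48 to 40.9 ± 0.79 CPM (log2 change 0.77, SE 0.053, adjusted p = 1.37e-08). Usp7, a deubiquitinase found with variant PRC1, rose in S1S2 (0.26, SE 0.031, adjusted p = 3.33e-05) and fell in G9Gl (-0.33, SE 0.025, adjusted p = 2.99e-06). Genes of their chromosomes shifted as well. The median log2 change over chromosome 19, which holds Pcgf5, was 0.34 in S1S2, and over chromosome 16, which holds Usp7, it was -0.09 in S1S2 and -0.20 in G9Gl. The part of these shifts was not tested. Of 9 opposing enzymes, H3K27 demethylases and H2A deubiquitinase subunits, 7 were tested, and 3 were lower and 0 higher in each mutant, with medians of -0.06 and -0.14. At an unadjusted p under 0.05, edgeR gave 0 higher in each and 3 and 6 lower, and DESeq2 gave 0 higher and 3 lower in each. Usp16, an H2A deubiquitinase, was the enzyme that fell in both, from 70.1 ± 2.53 to 53.6 ± 0.439 CPM in S1S2 and 60.0 ± 1.54 in G9Gl. It lies on chromosome 16 as well.

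**Figure D5:**
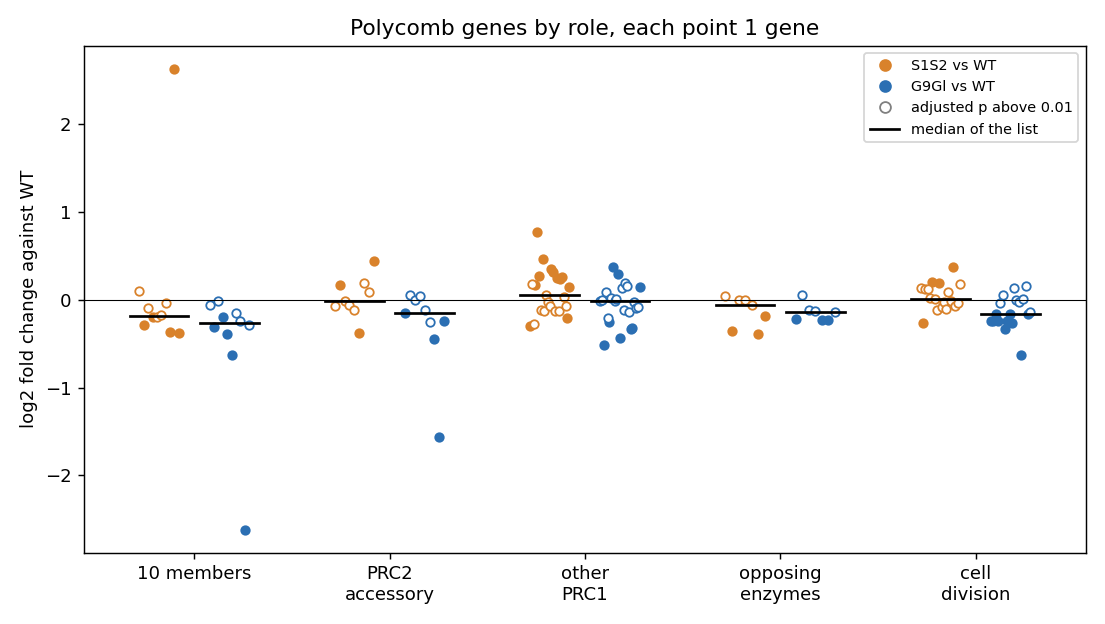
Log2 fold change against WT (vertical axis) of single genes in 5 lists (the 10 Polycomb genes, PRC2 accessory, other PRC1, opposing enzymes and cell division), in S1S2 and G9Gl MEFs; filled points have an adjusted p of at most 0.01 and black lines are list medians. The 10 members have medians of -0.18 and -0.27, and Cbx7 (2.63 and -2.62) and Epop (-1.57 in G9Gl) lie past 2-fold.

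Genes that Polycomb complexes are known to silence in many tissues were described last. The list of 87 holds Hox and other developmental genes, and also Cdkn2a and Cdkn2b. Of these 87, 50 were tested, and 35 in WT were at or under the floor of 3 counts in every library. In S1S2, 3 of the 50 were higher and 13 lower, with a median log2 fold change of -0.10, beside 20.3% and 17.6% of all genes. In G9Gl, 8 were higher and 15 lower, with a median of -0.26, beside 19.0% and 16.0%. Those past 2-fold were 0 higher and 6 lower in S1S2 (0 and 7 in DESeq2), beside 4.66% and 4.34% of all genes, and 4 higher and 5 lower in G9Gl (4 and 6 in DESeq2), beside 6.77% and 3.40%. With a minimum of 10 counts in every library, 2 passed 2-fold in S1S2 and 3 in G9Gl. Pax8 was tested only because it is high in G9Gl, so that it had to differ. Hoxd8 passed the low-count filter only with the WT libraries included, and 2 of 3 S1S2 libraries and 0 of 3 in G9Gl reached its limit. Targets thus moved in both directions in G9Gl.

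The LIM homeobox gene Lmx1b was at 10.5 ± 1.36 CPM in WT, 3.56 ± 0.483 in S1S2 and 0 counts in every G9Gl library. Lhx9, of the same class, went from 1.89 ± 0.129 CPM to 0.836 ± 0.148 in S1S2 and 0.229 ± 0.0792 in G9Gl, and Gata2, a blood and endothelial regulator, from 12.0 ± 0.515 to 5.79 ± 0.144 and 4.63 ± 0.178. These 3 fell in both mutants. Isl1 and Irx3, homeobox genes, fell in S1S2 and rose in G9Gl, Isl1 from 0.48 ± 0.0611 CPM to 0 counts in every S1S2 library and 7.16 ± 0.35 CPM in G9Gl, and Irx3 from 1.98 ± 0.293 to 0.405 ± 0.225 and 4.43 ± 0.313. Tbx5, a forelimb regulator, fell past 2-fold in S1S2, from 17.6 ± 0.795 to 4.70 ± 0.611 CPM. In G9Gl, Pax8 rose from 0.011 ± 0.0191 to 4.75 ± 0.412 CPM and Eomes from 1.86 ± 0.145 to 4.49 ± 0.166. Hoxd8, at 0.501 ± 0.0432 CPM in WT and 0.0351 ± 0.0608 in G9Gl, and Hoxb13, at 4.87 ± 0.2 and 1.52 ± 0.546, fell there.

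Cdkn2a and Cdkn2b, the locus that Bmi1 and Cbx7 are known to repress, were named after their values were seen. Cdkn2a was at 318 ± 21.6 CPM in WT, 261 ± 13.8 in S1S2 and 380 ± 45 in G9Gl. It fell in S1S2 (log2 change -0.29, SE 0.073, adjusted p = 0.00248) but rose in G9Gl (0.26, SE 0.11, adjusted p = 0.00549). Cdkn2b was at 57.4 ± 1.67 CPM in WT, 60.3 ± 1.16 in S1S2 and 96.0 ± 1.77 in G9Gl, where it rose (0.74, SE 0.029, adjusted p = 2.49e-10). Whether these shifts relate to those of Cbx7 was not tested.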

How the data were processed

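Total RNA of 9 MEF libraries was sequenced, 3 each of WT, S1S2 and G9Gl. The authors, according to the methods of the study, trimmed the paired-end reads of stranded libraries and aligned them to GRCm38 with STAR 2.5.2b. The authors deposited raw counts per Ensembl gene. The methods name TEtranscripts for counting and, for 1 set of plots, count matrices from snakePipes, and which made the deposited counts is not given in the sources used here. The annotation release and strand setting are not given in the sources used here. Reads shared by overlapping or near-identical genes are therefore uncertain.

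All genes were fitted together in edgeR 4.0.16 (R 4.3.3; filterByExpr, TMM, quasi-likelihood F test, 1 coefficient per genotype), with Benjamini-Hochberg adjustment over 15540 genes. A gene passed at an adjusted p of at most 0.01. Calls at both limits also needed a 2-fold change. The study gives a P value limit of 0.01 with a 2-fold change, and whether that P value was adjusted is not stated there. CPM are scaled by TMM. The SE come from replicate log2 CPM with a prior count of 2, whereas the log2 changes are fitted by edgeR. At few counts, as for Cbx7, the SE can be too small. The common biological coefficient of variation was 5.36%. Intervals and the floor of 3 counts cover counting error only, since molecules were not tagged and reads from 1 molecule can be counted repeatedly.

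Positions and exon lengths came from GENCODE M21, which lacked 713 of the identifiers. Promoter sequences came from RefSeq. Named were all 10 Polycomb genes, up to 10 genes per list past both limits, the 4 targeted genes and the 3 genes most like the most variable members. Further genes of the lists, overlapping genes and markers were picked as examples after their values were seen. The members and lists were chosen with earlier results of these data known. Alternatives were DESeq2 1.42.0, other scalings, filters, limits and fits, thinning, a replicate block, leaving out each library and removal of chromosome or local medians, the last chosen after seeing the data. A gene of the list of other PRC1 genes is not reported here, and the counts of that list were computed without it after the results were known.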

Additional observations from a re-analysis of the deposited data

Results flagged for a closer look

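Cbx7 was higher in S1S2 and lower in G9Gl than in WT. The direct contrast of G9Gl with S1S2 was -5.249 on the log2 scale (SE 0.46, from log2 CPM with a prior count of 2). Cbx7 passed the low-count filter only through the S1S2 libraries, where it is high, so this contrast is given as a description and its p as no support. All 3 S1S2 libraries were above, and all 3 G9Gl libraries below, every WT library. The G9Gl libraries held 4, 2 and 0 counts of Cbx7. Its opposite-strand neighbour Apobec3 differed the other way, by 2.97 (SE 0.13, edgeR adjusted p = 1.45e-13).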

How the results depend on the processing

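The count of Polycomb genes past the adjusted p was 5 in S1S2, 5 in G9Gl and 2 between the mutants, and 1 of each was past 2-fold. A minimum of 10 counts in every library removed Cbx7 from testing, and Ring1 no longer passed in G9Gl, which left 3 in G9Gl, 1 between the mutants, and 0 past 2-fold in all 3 comparisons. A fit of only the libraries compared did not test Cbx7 in G9Gl against WT and lost Ring1, which gave 3 there with 0 past 2-fold, and an adjusted p of at most 0.05 gave 8 in G9Gl. Leaving out each library gave 3 to 5 in S1S2 (3 without S1S2 replicate 2), 3 to 6 in G9Gl (3 without WT replicate 1 or G9Gl replicate 3), and 0 to 1 past 2-fold in G9Gl, with 0 without the same libraries. Apart from the missing test of Cbx7, the cause was not tested. DESeq2, its size factors, library totals alone, no filter and thinning left each count within 1.5 times. With the replicate number as a block (replicate block), the counts were 5, 5 and 2. Same-numbered libraries correlated at -0.0686 to 0.124 in their deviations, so the numbers were not taken as pairs. Rnf2 passed the limit in S1S2 without a composition factor (-0.20), without a filter (-0.19), with the minimum of 10 counts (-0.19) and in the fit of only the libraries compared (-0.18). Balances with Cbx7 depend on the prior count because G9Gl had few counts. With 0.5 in place of 2, Cbx7 minus Cbx2 was -2.507 in G9Gl against WT and -5.583 against S1S2, and Cbx7 minus Cbx8 was -2.468 and -5.55. The fold of Cbx7 in G9Gl is limited by depth.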
